A study of Homo sapiens with 16 samples.

Results

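The 41 genes described here carry the signalling of DNA damage and its repair by homologous recombination, with the break-joining factors that compete with it. They were chosen by symbol, matched to the deposited gene tables by NCBI gene number, and make up 41 of the 27434 rows of each table. All 41 were found and all passed the filter on low counts in every fit. A total of 3 members shared a row with other genes, so their values are uncertain: RBBP8 with MIR4741, RAD51D with RFFL and a readthrough of the pair, and RAD54B with FSBP.

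Polyadenylated RNA of 8 groups was sequenced with 2 libraries each, 16 in all, in the human cell lines U2OS, from an osteosarcoma, and HCT116, from a colorectal carcinoma. U2OS cells were genetically wild type and were given SAM68 siRNAs as a pool, a control siRNA pool without a target, a pcDNA3 plasmid with HA-tagged mouse SAM68 or the pcDNA3.1(+) control plasmid. HCT116 cells with a SAM68 knockout (KO) and wild-type HCT116 cells were each given pooled siRNAs against NORAD or the control pool. All were transfected by lipofection, with siRNA at 50 nM and plasmid at 100 ng per 20000 cells, and harvested after 48 h. The labels do not say how the knockout was made, whether it is 1 clone, or whether replicate libraries are separate cultures. The p-values thus cover only the spread between libraries, which may be technical.

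A broken chromosome is sensed by the kinases ATM, ATR and DNA-PK, which mark the surrounding chromatin and halt the cell cycle through CHEK1 and CHEK2. The ends are either joined directly by the Ku and ligase 4 machinery or cut back by nucleases, after which BRCA1, PALB2 and BRCA2 act in copying from the sister chromatid. NORAD is a long noncoding RNA that holds Pumilio proteins, which repress mRNAs through a short motif in the 3′ UTR. Loss of NORAD is known for chromosomal instability, and the series asks whether SAM68, an RNA-binding protein encoded by KHDRBS1, is needed for NORAD to act on Pumilio.

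Pumilio sites were present in the 3′ UTRs of some members. The motif TGTANATA was searched on the sense strand of the longest annotated 3′ UTR of each gene (RefSeq-linked transcripts of GENCODE release 29, build GRCh38), and 14 of the 41 members (34.1%) held it, against 4470 of 18427 genes (24.3%). The median 3′ UTR was 1094 bases in the members and 948 bases over those genes. The shares were not adjusted for this length or for base content. The motif was found at 2 or more places in 4 members: FANCM, BARD1, TP53BP1 and RAD51D, whose 3′ UTR lies in the shared row with RFFL. The following windows of 30 bases, with the motif in capitals, are from members whose level is described below under SAM68 knockout or NORAD siRNA. They lie at chr13:108207636-108207665 on the minus strand for LIG4, chr5:83353700-83353729 on the plus strand for XRCC4, chr16:89738548-89738577 on the minus strand for FANCA, chr11:125657029-125657058 on the plus strand for CHEK1, and chr2:214727928-214727957 on the minus strand for the first of the BARD1 sites. The FANCM sites lie at chr14:45200080-45200109 and chr14:45200384-45200413 on the plus strand.
LIG4: tttaaagtcaaTGTATATAgtatatattat
XRCC4: taattttagttTGTACATAaacattgtgaa
FANCA: cccagctcccgTGTAAATAatttattacaa
CHEK1: gaaaggcattcTGTAAATAataagttgcct
BARD1: tctactacatgTGTATATAtacttagagca
FANCM site 1: ttatgtttattTGTAAATAagagaatattt
FANCM site 2: ttttccctatgTGTAGATAgtatactttta
A match to these letters is a description of the sequence, not of Pumilio binding. The site of FANCA begins at base 35 and that of LIG4 at base 879 after the stop codon. The other members with the motif were ATM, BLM, PALB2, RNF8, RNF168 and XRCC5.

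Total expected counts per library were 11349545 to 27387412, and the members took 0.448% to 0.643% of them. The lowest count of any member in any library was 98. KHDRBS1 in U2OS stood at 48.6 to 80.7 CPM (library-scaled counts) under SAM68 siRNA against 245 to 249 CPM under control siRNA. In HCT116 it stood at 31.6 to 44.5 CPM in KO against 206 to 241 CPM in wild-type HCT116. Under the SAM68 plasmid it was 531 to 593 CPM, against 220 to 277 CPM under the control plasmid, where reads of the mouse transgene may be part of the value. NORAD was at 54.7 to 77.4 CPM under NORAD siRNA against 225 to 252 CPM under control siRNA in KO cells, and at 47.4 to 50.2 CPM against 232 to 249 CPM in wild-type cells. The targeted genes thus lay in the direction of the labels in each library. Epithelial markers, 14 genes, summed to 930 to 1300 TPM in U2OS and 4265 to 5461 TPM in HCT116, where the colon markers CDX1, VIL1 and LGR5 were at 0. A mean of at least 1 TPM was reached by 5 of the 14 in U2OS, with CDH1 and ESRP1 below it, and by 10 in HCT116. Mesenchymal markers, 12 genes, summed to 3032 to 5122 TPM in U2OS, with TWIST1 at 0, and to 9.28 to 14.6 TPM in HCT116. Markers of other cells (blood, endothelium, liver) summed to at most 1.11 TPM.

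The Ku genes of end joining were the most abundant members. Levels between genes were compared in TPM (an abundance per transcript length, deposited by the authors), since CPM grows with transcript length. XRCC6, which encodes the Ku70 subunit that caps broken ends, averaged 997 TPM over the 16 libraries, with a range of 826 to 1205 TPM. XRCC5, its Ku80 partner, averaged 454 TPM (324 to 563 TPM). PARP1, the polymerase that marks breaks with ADP-ribose chains, averaged 208 TPM (172 to 233 TPM). These 3 ranges did not overlap, whereas PARP1 overlapped with the next gene, RAD51C, which acts in homologous recombination (134 to 184 TPM).

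The lowest members were LIG4, FANCM and BRCA2. BRCA2, a mediator of homologous recombination, averaged 5.82 TPM (2.72 to 16.3 TPM). FANCM, the translocase that recruits the Fanconi anaemia core complex, averaged 6.43 TPM (2.46 to 10.8 TPM). LIG4, the ligase that seals joined ends, averaged 7.26 TPM (2.83 to 12.04 TPM). Their ranges overlapped, so the order among them was not resolved. The lowest value of each came from replicate 1 of the SAM68 plasmid. Over all libraries the ratio of the highest to the lowest value of a member ran from 1.35 for PARP1 to 7.13 for MRE11.

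**Figure D1:**
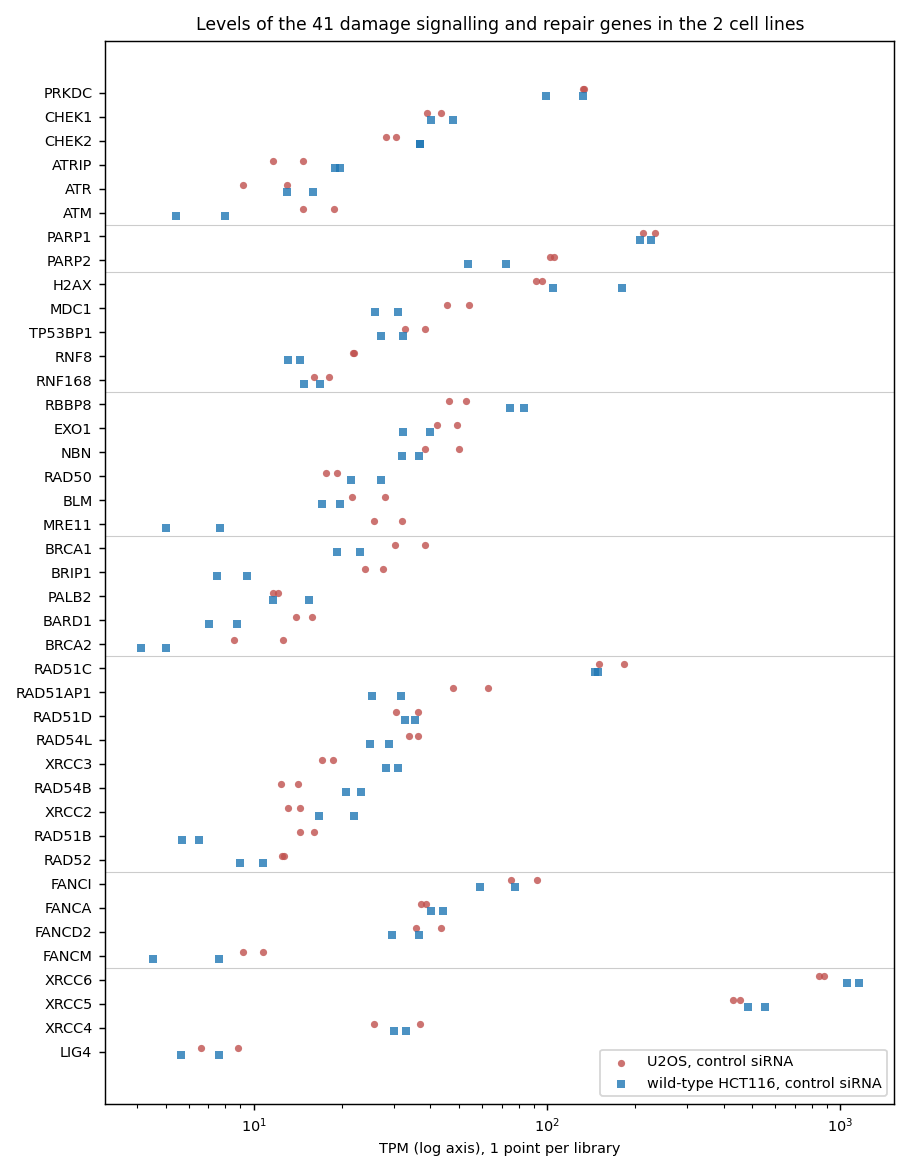
TPM of the 41 members (log axis) in the control siRNA libraries of U2OS (red circles) and wild-type HCT116 (blue squares), 1 point per library, with grey lines between functional groups. XRCC6, XRCC5 and PARP1 are at the top of the scale, and MRE11, BRIP1, RAD51B and ATM lie higher in both U2OS libraries than in both HCT116 libraries.

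The 2 cell lines differed in more members than any transfection changed. Between U2OS and wild-type HCT116, both under control siRNA, 21 of 41 members passed an adjusted p below 0.05 (edgeR quasi-likelihood test across all genes), 7 higher and 14 lower in U2OS. The share over all tested genes was larger, 65.4% of 16444, with 35.6% higher and 29.8% lower, so the count of members is not above the background. Groups without overlap were found for 13 members higher and 19 lower in U2OS, beside 45.7% and 39.4% of all genes. The members' median log2 fold change was -0.138, against 0.104 over all tested genes. The lines also differ in tissue, growth and any batch, and these cannot be told apart. In RNA from whole cultures, fewer expressing cells and less RNA per cell cannot be told apart either.

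End resection, the cutting back of broken ends, held a called member in each direction. MRE11, the nuclease of the complex that first trims an end, was at 76.8 and 62.1 CPM in U2OS, against 16.1 and 23.1 CPM in HCT116. That is a log2 fold change of 1.83 ± 0.29 (SE; edgeR adjusted p = 6.29e-05), the largest among the members, with groups that did not overlap. RBBP8 (CtIP), which activates that nuclease, went the other way, with 78.8 and 69.4 CPM in U2OS and 148 and 155 CPM in HCT116 (log2 fold change -1.04 ± 0.23, edgeR adjusted p = 0.00112). RAD50, the partner of MRE11 in the complex, had a log2 fold change of -0.76 ± 0.33 that did not pass the test (edgeR adjusted p = 0.0551). MRE11 and RBBP8 were the resection genes, of 6, that passed between the lines.

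Among the genes of strand exchange, 2 rose and 4 fell in U2OS. RAD51B was at 15.5 and 14.2 CPM in U2OS, against 7.66 and 6.42 CPM in HCT116 (log2 fold change 1.07 ± 0.17, edgeR adjusted p = 9.08e-05). RAD51AP1, which helps DNA strands pair, was at 62.4 and 47.7 CPM in U2OS and 33.4 and 39.1 CPM in HCT116 (0.60 ± 0.22 on the log2 scale, edgeR adjusted p = 0.0291). Neither overlapped between the lines. XRCC3, which acts with RAD51C, was at 21.6 and 19.9 CPM in U2OS and 48.2 and 41.3 CPM in HCT116 (log2 fold change -1.11 ± 0.15, edgeR adjusted p = 1.88e-05). RAD54B, a motor protein of strand exchange, was at 21.7 and 19.3 CPM in U2OS and 41.2 and 43.2 CPM in HCT116, though its row includes FSBP (log2 fold change -1.04 ± 0.27, edgeR adjusted p = 0.00363). RAD51D, in the row shared with RFFL, was at 53.6 and 47.2 CPM in U2OS and 68.2 and 72.9 CPM in HCT116 (-0.49 ± 0.13, edgeR adjusted p = 0.00421). In these 3 genes each U2OS library lay below each HCT116 library, and XRCC2 was also called lower (log2 fold change -0.86, edgeR adjusted p = 0.0398).

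The Ku genes were lower in U2OS. XRCC6 was at 872 and 857 CPM in U2OS, against 1374 and 1400 CPM in HCT116 (log2 fold change -0.68 ± 0.13, edgeR adjusted p = 0.000433). XRCC5 was at 715 and 683 CPM in U2OS, against 1014 and 1088 CPM in HCT116 (-0.59 ± 0.11 on the log2 scale, edgeR adjusted p = 0.000366). Neither overlapped, while LIG4 and XRCC4 of the same pathway were not called.

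Of the damage kinases and their partners, ATM rose in U2OS and 3 genes fell. ATM, the kinase that responds to double-strand breaks, was at 117 and 92.7 CPM in U2OS and 45.4 and 62.8 CPM in HCT116 (log2 fold change 0.95 ± 0.34, edgeR adjusted p = 0.0244). ATRIP, the partner through which ATR finds single-stranded DNA, was at 17.1 and 13.8 CPM in U2OS and 29.4 and 28.3 CPM in HCT116 (-0.90 ± 0.15 on the log2 scale, edgeR adjusted p = 9.27e-05). CHEK2, the kinase downstream of ATM, was at 24.9 and 23.4 CPM in U2OS and 39.7 and 37.2 CPM in HCT116 (log2 fold change -0.67 ± 0.17, edgeR adjusted p = 0.00346). For each of them both U2OS libraries lay on 1 side of both HCT116 libraries. CHEK1, the kinase downstream of ATR, was at 62.2 and 54.8 CPM in U2OS and 77.6 and 86.2 CPM in HCT116 (-0.49 ± 0.16, edgeR adjusted p = 0.0173).

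The BRCA group and the chromatin group each had 1 called member higher and 1 lower in U2OS, and the Fanconi anaemia group had 1 lower. BRIP1, the helicase that binds BRCA1, was at 106 and 92.6 CPM in U2OS and 38.5 and 46.1 CPM in HCT116 (log2 fold change 1.23 ± 0.34, edgeR adjusted p = 0.00534). PALB2, the bridge between BRCA1 and BRCA2, was at 21.8 and 22.9 CPM in U2OS and 29.1 and 36.2 CPM in HCT116 (-0.55 ± 0.20 on the log2 scale, edgeR adjusted p = 0.0266). FANCA, a subunit of the Fanconi core complex, was at 77.8 and 72.6 CPM in U2OS and 109 and 117 CPM in HCT116 (log2 fold change -0.59 ± 0.13, edgeR adjusted p = 0.00106). The groups did not overlap in any of the 3. MDC1, the adaptor that reads phosphorylated H2AX, was at 158 and 189 CPM in U2OS and 120 and 135 CPM in HCT116 (0.45 ± 0.16 on the log2 scale, edgeR adjusted p = 0.0242). H2AX, the histone that damage kinases phosphorylate, was at 63.1 and 66.3 CPM in U2OS and 164 and 88.6 CPM in HCT116 (log2 fold change -0.97 ± 0.28, edgeR adjusted p = 0.00767). Its HCT116 replicates lay far apart, its transcript had the highest GC content of the members (66.4%), and with an offset for GC content its log2 fold change was -0.02 (edgeR adjusted p = 0.895), which ended the call. The polymerases split, PARP2 at 86.0 and 83.3 CPM in U2OS against 57.7 and 72.6 CPM in HCT116 (log2 fold change 0.38 ± 0.16, edgeR adjusted p = 0.0476), and PARP1 with -0.32 ± 0.12 (edgeR adjusted p = 0.0321).

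On the TPM scale 20 of these 21 genes had the same direction between the group means. The exception was PARP1, at 213 and 234 TPM in U2OS and 207 and 226 TPM in HCT116, so its direction depends on the scale. The same direction did not always mean separate groups. RAD51D overlapped in TPM, at 36.3 and 30.6 in U2OS and 32.7 and 35.6 in HCT116. CHEK1, PALB2 and PARP1 also overlapped in TPM. The other called genes did not overlap there, FANCA by a narrow margin (38.8 and 37.0 TPM in U2OS, 40.2 and 44.2 TPM in HCT116). Over all members the split also moved with the scale, 25 of 41 being higher in U2OS in TPM and 16 of 41 in CPM. MRE11, BRIP1, RAD51B, XRCC3, RBBP8, ATRIP, CHEK2, FANCA, RAD54B, XRCC5 and XRCC6 had the same direction on both scales and were called in each of the 4 fits that left out 1 library. ATM, CHEK1, H2AX, MDC1, PALB2, PARP2, RAD51AP1 and RAD51D lost their call in at least 1 of those fits. With the GC offset 28 members were called, 18 of them shared, and the share over all genes in that fit is not given here. H2AX, MDC1 and PARP2 lost their call there, MDC1 with a log2 fold change of 0.36 (edgeR adjusted p = 0.0524) and PARP2 with 0.15 (edgeR adjusted p = 0.275). BARD1 was added as higher in U2OS, and ATR, FANCD2, LIG4, NBN, PRKDC, RAD50, RNF168, TP53BP1 and XRCC4 as lower. The other genes of these pathways, a list of 73 found in the tables, had 17 called higher and 17 called lower in U2OS, with a median log2 fold change of 0.142.

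None of the members passed the test under SAM68 siRNA in U2OS, 0 of 41 with edgeR and 0 with DESeq2, beside 0.00639% of all 15658 tested genes. No member reached an unadjusted p below 0.05. The members' log2 fold changes were negative in 33 of 41, with a median of -0.154 against -0.007 over all genes, and ran from -0.46 to 0.17. FANCI, which is ubiquitinated with FANCD2 at crosslinks, was at 184 and 105 CPM under SAM68 siRNA and 218 and 179 CPM under control siRNA (log2 fold change -0.46 ± 0.26, edgeR adjusted p = 1). RNF168, a ubiquitin ligase of broken chromatin, was at 39.6 and 31.2 CPM under SAM68 siRNA and 42.6 and 48.8 CPM under control siRNA (-0.37 ± 0.23 on the log2 scale, edgeR adjusted p = 1). TP53BP1, which restrains resection, was at 96.6 and 90.4 CPM under SAM68 siRNA and 102 and 121 CPM under control siRNA (log2 fold change -0.26 ± 0.18, edgeR adjusted p = 1). These 3 had the smallest p of the members, and only FANCI overlapped between the groups. Over the members 1 lay higher and 4 lower without overlap, beside 9.45% and 9.42% of all genes.

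The negative median rested on single libraries. It was -0.473 without replicate 1 of the SAM68 siRNA group, 0.128 without replicate 2, and -0.005 without replicate 1 of the control siRNA group. The summed TPM of the members in those libraries was 3050 in replicate 1 and 2519 in replicate 2. The log2 fold changes had a Spearman correlation of 0.547 with transcript GC content across the members and 0.392 across 14854 genes, and with the GC offset the members' median was -0.07. The pathway list had a median of -0.074, and none of its 73 genes was called. KHDRBS1 itself, at a log2 fold change of -1.94, had an edgeR adjusted p of 0.185 in this comparison, so changes of that size can miss the threshold at the spread between the U2OS replicates.

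None of the members passed the test under the SAM68 plasmid either, 0 of 41 with edgeR and 0 with DESeq2, beside 0.00639% of 15658 genes, and none had an unadjusted p below 0.05. Their median log2 fold change was -0.047, against 0.011 over all genes. MDC1 was at 153 and 191 CPM under the SAM68 plasmid and 199 and 221 CPM under the control plasmid (log2 fold change -0.29 ± 0.19, edgeR adjusted p = 1). H2AX was at 132 and 99.0 CPM under the SAM68 plasmid and 76.8 and 107 CPM under the control plasmid (0.33 ± 0.24 on the log2 scale, edgeR adjusted p = 1). RAD51B was at 20.5 and 17.6 CPM under the SAM68 plasmid and 15.7 and 17.6 CPM under the control plasmid (log2 fold change 0.20 ± 0.19, edgeR adjusted p = 1). H2AX overlapped between the groups, and the RAD51B values nearly touched. Over the members 2 lay higher and 4 lower without overlap, beside 10.0% and 7.94% of all genes. The pathway list had 0 of 73 called. KHDRBS1 itself, at a log2 fold change of 1.18 ± 0.24, was not called under the plasmid, so changes of that size can miss the threshold here too.

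**Figure D2:**
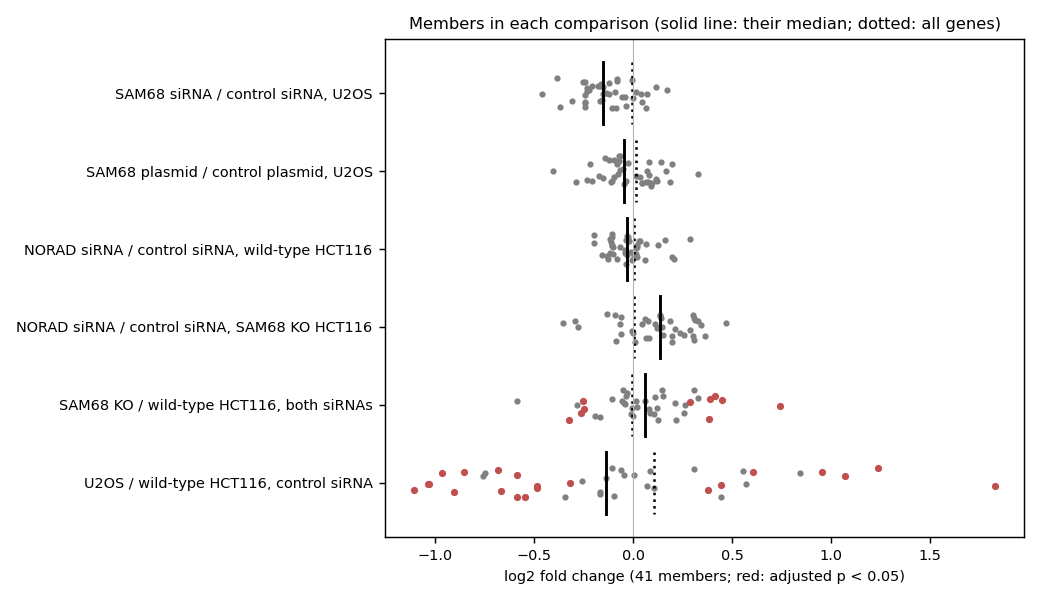
Log2 fold change of each of the 41 members (points, jittered vertically) in 6 comparisons, red where the adjusted p was below 0.05, with the members' median as a solid line and that of all tested genes as a dotted line. Called members appear only in SAM68 KO over wild type (10) and U2OS over wild-type HCT116 (21), and the spread is widest between the cell lines.

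In HCT116, NORAD siRNA changed no member past the threshold in either genotype. In KO cells 0 of 41 were called with edgeR and 0 with DESeq2, beside 0.00727% of 13764 genes. The members' median log2 fold change was 0.137, against 0.003 over all genes, and 30 of 41 were positive. At an unadjusted p below 0.05 there were 5 higher and 2 lower members, beside 961 higher and 597 lower of 13764 genes. The smallest edgeR adjusted p of the members was 0.428. RAD51AP1 was at 52.3 and 42.9 CPM under NORAD siRNA and 34.3 and 34.5 CPM under control siRNA (log2 fold change 0.47 ± 0.13, edgeR adjusted p = 0.428). RAD51C was at 115 and 104 CPM under NORAD siRNA and 89.2 and 83.3 CPM under control siRNA (0.34 ± 0.10 on the log2 scale, edgeR adjusted p = 0.428). XRCC3 was at 28.8 and 31.3 CPM under NORAD siRNA and 40.6 and 36.7 CPM under control siRNA (log2 fold change -0.36 ± 0.12, edgeR adjusted p = 0.428). In these 3 genes the groups did not overlap, which held for 18 members in the higher direction and 5 in the lower, beside 22.0% and 21.4% of all genes. The other members with an unadjusted p below 0.05 were CHEK1 (log2 fold change 0.30), BARD1 (0.31), RAD54B (0.31) and MDC1 (-0.29).

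The log2 fold changes in KO cells tracked the GC content of the transcripts. Across the 41 members the Spearman correlation between them was -0.835, and across 13217 genes it was -0.701. These are correlations across genes measured in the same 4 libraries, and genes are not independent replicates. The 20 members of lower GC content had a median of 0.273 and the 21 of higher GC content a median of -0.002. With an offset for GC content the members' median was -0.018, with 19 of 41 positive. Libraries of the same group also differed along GC content, with Spearman correlations between replicate 1 minus replicate 2 and GC content of -0.589 to 0.508 over the 8 groups.

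In wild-type HCT116 NORAD siRNA likewise gave no called member, 0 of 41 with edgeR and 0 with DESeq2, beside 0.00727% of 13764 genes, where NORAD itself was the gene called, and none had an unadjusted p below 0.05. The median log2 fold change was -0.032, against 0.003 over all genes. ATRIP was at 31.7 and 32.1 CPM under NORAD siRNA and 28.4 and 27.3 CPM under control siRNA (log2 fold change 0.19 ± 0.11, edgeR adjusted p = 0.999). FANCA was at 121 and 123 CPM under NORAD siRNA and 106 and 112 CPM under control siRNA (0.16 ± 0.11 on the log2 scale, edgeR adjusted p = 0.999). RAD52, a mediator of strand annealing, was at 16.6 and 18.6 CPM under NORAD siRNA and 13.9 and 16.7 CPM under control siRNA (log2 fold change 0.21 ± 0.15, edgeR adjusted p = 0.999). RAD52 overlapped between the groups by a narrow margin, and the others did not overlap. Over the members 2 lay higher and 2 lower without overlap, beside 13.0% and 13.9% of all genes. The relation with GC content ran the other way here, at 0.569 across members and 0.405 across all genes, and with the GC offset the members' median was 0.023.

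The difference of the NORAD siRNA effects, KO minus wild type, was tested as an interaction. None of the members passed, 0 of 41 with edgeR and 0 with DESeq2, beside 0.0% of 13764 genes. The median difference in log2 fold change was 0.172, against -0.007 over all genes, and 31 of 41 were positive. RAD51AP1 had a difference of 0.57 ± 0.19, CHEK1 of 0.43 ± 0.16 and RAD51C of 0.35 ± 0.14, each with an edgeR adjusted p of 0.642. Across the members these differences had a Spearman correlation of -0.852 with transcript GC content. With the GC offset the median difference was -0.063. The members with a Pumilio motif had a median difference of 0.233 (14 genes) and those without one of 0.103 (27 genes). Under NORAD siRNA in wild-type cells these medians were -0.055 and -0.012, and in KO cells 0.157 and 0.137. All medians by motif are without the GC offset, and the split by motif was not tested. The genes whose sites are printed above had no adjusted p below 0.05 under NORAD siRNA in either genotype, and of them CHEK1 and BARD1 had an unadjusted p below 0.05 in KO cells.

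SAM68 KO against wild-type HCT116, averaged over both siRNAs with 4 libraries a side, gave 10 called members of 41. LIG4, NBN, RBBP8, RAD50, XRCC4 and FANCM rose in KO, and XRCC3, RAD54L, ATRIP and FANCA fell. The background was 17.6% of 13764 genes called, 11.0% higher and 6.62% lower, so 10 of 41 is of the same order. Groups without overlap were found for 3 members higher and 5 lower in KO, beside 10.4% and 8.71% of all genes. The members' median log2 fold change was 0.057, against -0.008 over all genes, and 23 of 41 were positive. With an offset for GC content the members' median was -0.097, against -0.005 over all genes, with 12 of 41 positive. KO and wild-type cells are separate lines, and the knockout and any other difference between them cannot be told apart.

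The end-joining genes LIG4 and XRCC4, whose products bind each other, both rose in KO. LIG4 (NCBI gene 3981) was at 26.3 and 25.5 CPM under NORAD siRNA and 18.2 and 26.96 CPM under control siRNA in KO cells, against 13.67 and 13.98 CPM under NORAD siRNA and 13.5 and 17.0 CPM under control siRNA in wild-type cells. Each KO library lay above each wild-type library, and the log2 fold change was 0.74 ± 0.13 (edgeR adjusted p = 0.0111). XRCC4 was at 46.8 and 36.4 CPM under NORAD siRNA and 30.8 and 36.5 CPM under control siRNA in KO cells, against 26.1 and 29.6 CPM under NORAD siRNA and 28.4 and 28.2 CPM under control siRNA in wild-type cells. Its groups did not overlap either (log2 fold change 0.41 ± 0.11, edgeR adjusted p = 0.0298), but with an offset for GC content XRCC4 was at 0.05 ± 0.08 (edgeR adjusted p = 0.725), which ended the call. The Ku genes XRCC5 and XRCC6 had log2 fold changes of 0.06 ± 0.07 and 0.11 ± 0.07 and were not called, and XRCC5 was at -0.12 with the offset.

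Of the 6 resection genes all had positive log2 fold changes and 3 passed. NBN, the signalling subunit of the MRE11 complex, was at 123 and 129 CPM under NORAD siRNA and 91.8 and 118 CPM under control siRNA in KO cells, against 79.2 and 90.1 CPM under NORAD siRNA and 88.6 and 95.0 CPM under control siRNA in wild-type cells (log2 fold change 0.39 ± 0.09, edgeR adjusted p = 0.0265). RAD50 was at 116 and 124 CPM under NORAD siRNA and 102 and 128 CPM under control siRNA in KO cells, against 81.1 and 92.7 CPM under NORAD siRNA and 85.8 and 101 CPM under control siRNA in wild-type cells (0.38 ± 0.10 on the log2 scale, edgeR adjusted p = 0.0297). RBBP8 was at 186 and 185 CPM under NORAD siRNA and 149 and 171 CPM under control siRNA in KO cells, against 133 and 139 CPM under NORAD siRNA and 144 and 150 CPM under control siRNA in wild-type cells (log2 fold change 0.29 ± 0.07, edgeR adjusted p = 0.0279). RAD50 did not overlap between the genotypes, while NBN and RBBP8 overlapped through the lowest KO library, replicate 1 under control siRNA. MRE11 had a log2 fold change of 0.26 ± 0.12 (edgeR adjusted p = 0.157). With the GC offset RBBP8 alone of the 6 was called, RAD50 was at 0.16 and EXO1 at 0.01, and the signs were no longer all positive, with MRE11 at -0.02 and BLM at -0.03.

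FANCM and FANCA, both of the Fanconi pathway, moved in opposite directions. FANCM was at 28.8 and 26.5 CPM under NORAD siRNA and 18.3 and 24.5 CPM under control siRNA in KO cells, against 15.4 and 17.9 CPM under NORAD siRNA and 16.1 and 22.3 CPM under control siRNA in wild-type cells (log2 fold change 0.45 ± 0.13, edgeR adjusted p = 0.0455). FANCA was at 85.9 and 103 CPM under NORAD siRNA and 97.6 and 99.5 CPM under control siRNA in KO cells, against 121 and 123 CPM under NORAD siRNA and 106 and 112 CPM under control siRNA in wild-type cells (-0.26 ± 0.08 on the log2 scale, edgeR adjusted p = 0.0487). FANCA did not overlap between the genotypes and FANCM did. FANCI and FANCD2, the pair the pathway ubiquitinates, were not called. With the GC offset FANCM was at 0.18 (edgeR adjusted p = 0.22) and FANCA at -0.15 (edgeR adjusted p = 0.204), neither called. FANCI was called lower there, at -0.33 (edgeR adjusted p = 0.00568), and FANCD2 was not.

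Strand exchange and kinase members made up the other decreases. XRCC3 was at 28.8 and 31.3 CPM under NORAD siRNA and 40.6 and 36.7 CPM under control siRNA in KO cells, against 43.4 and 40.8 CPM under NORAD siRNA and 46.6 and 39.8 CPM under control siRNA in wild-type cells (log2 fold change -0.32 ± 0.09, edgeR adjusted p = 0.0342). RAD54L, a motor protein of strand exchange, was at 34.33 and 35.05 CPM under NORAD siRNA and 38.7 and 37.4 CPM under control siRNA in KO cells, against 42.0 and 45.7 CPM under NORAD siRNA and 41.6 and 45.3 CPM under control siRNA in wild-type cells (-0.26 ± 0.08 on the log2 scale, edgeR adjusted p = 0.0439). ATRIP was at 23.8 and 25.2 CPM under NORAD siRNA and 25.3 and 25.9 CPM under control siRNA in KO cells, against 31.7 and 32.1 CPM under NORAD siRNA and 28.4 and 27.3 CPM under control siRNA in wild-type cells (log2 fold change -0.25 ± 0.08, edgeR adjusted p = 0.0486). RAD54L and ATRIP did not overlap, and XRCC3 overlapped in 1 KO library. H2AX (log2 fold change -0.59 ± 0.19, edgeR adjusted p = 0.0561) and MDC1 (-0.29 ± 0.09, edgeR adjusted p = 0.0575) just missed the threshold. H2AX overlapped between the genotypes and MDC1 did not. With the GC offset H2AX was at -0.24 (edgeR adjusted p = 0.111) and MDC1 at -0.20 (edgeR adjusted p = 0.14). None of the BRCA group (BRCA1, BARD1, BRCA2, PALB2 and BRIP1) was called, with log2 fold changes of at most 0.12. With the GC offset BRCA2 (-0.36, edgeR adjusted p = 0.0115) and BRIP1 (-0.31, edgeR adjusted p = 0.0239) were called lower. BRCA1, BARD1 and PALB2 were also negative there but not called.

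**Figure D3:**
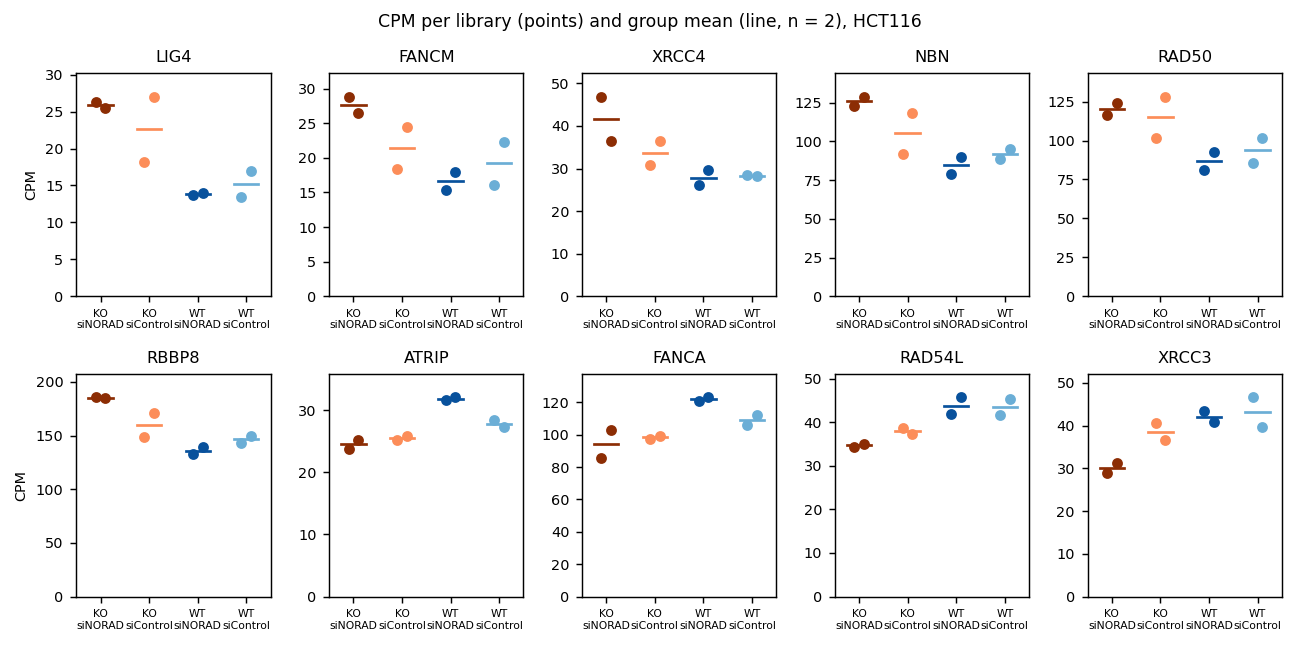
CPM of the 10 members called in SAM68 KO against wild-type HCT116, 1 panel per gene with the y axis from 0, points for libraries and lines for group means (n = 2). The gap between the genotype means is wider under NORAD siRNA than under control siRNA in each panel, a difference that passed no test, and in LIG4 each KO library lies above each wild-type library.

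The count of called members differed with the siRNA. Between genotypes under control siRNA alone, 0 of 41 members were called (0.312% of 13764 genes). An unadjusted p below 0.05 was reached by 1 member, beside 709 genes higher and 560 lower. LIG4 was at a log2 fold change of 0.58 ± 0.19 (edgeR adjusted p = 0.36). Under NORAD siRNA alone 13 were called, 9 higher and 4 lower (18.1% of 13764 genes, 11.6% higher and 6.58% lower), with LIG4 at 0.91 ± 0.19 (edgeR adjusted p = 0.0199). All 10 of the pooled calls but RAD54L were among them, and the further ones were RAD51AP1, ATR, CHEK1 and H2AX. With the GC offset 3 members were called under NORAD siRNA, RBBP8 higher and FANCI and RAD54B lower. LIG4 was at 0.29 ± 0.12 (edgeR adjusted p = 0.237), and the share over all genes with the offset is not given here. RAD51AP1 (-0.065), CHEK1 (-0.02) and XRCC4 (-0.007), called higher without the offset, were below 0 with it. The difference between the siRNAs is the interaction given above, in which no member passed.

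Called members also lay apart in GC content. The 6 that rose in KO had a median transcript GC content of 38.4% (35.7% to 50.4%) and the 4 that fell one of 54.8% (52.6% to 62.8%), beside a median of 43.0% over the members and 49.8% over all tested HCT116 genes with a value. Across members the log2 fold change and GC content had a Spearman correlation of -0.74, and across 13217 genes one of -0.643. With an offset for GC content 6 members were called, of which LIG4 (log2 fold change 0.36 ± 0.09, edgeR adjusted p = 0.0321) and RBBP8 (0.31 ± 0.06, edgeR adjusted p = 0.0112) were shared with the fit without it. The other 4 were lower in KO: FANCI (-0.33), RAD54B (-0.35), BRIP1 (-0.31) and BRCA2 (-0.36). In all 13 of the 41 members changed sign with the offset, none of them among the 10 called without it. NBN had 0.05 ± 0.06 and XRCC3 -0.07 ± 0.06 under that offset. RBBP8, at 50.4% GC, had nearly the same value with and without the offset, whereas that of LIG4, at 35.7% the lowest GC content of the members, was 0.74 without and 0.36 with it. The part of GC content in these differences was not tested beyond this offset. The share over all genes with the offset is not given here, so the count of 6 has no background beside it.

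**Figure D4:**
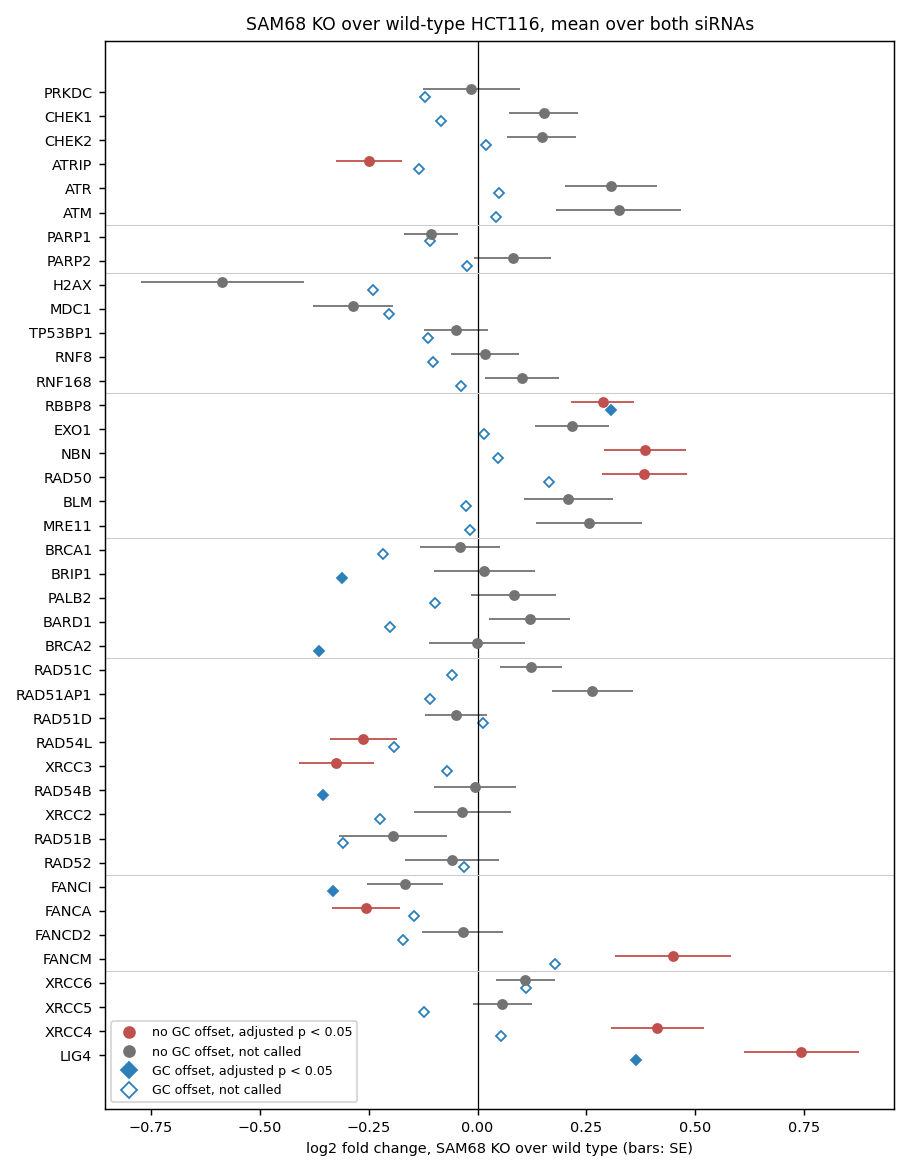
Log2 fold change of the 41 members in SAM68 KO over wild-type HCT116 (circles with SE, red where called) and the same with an offset for GC content (diamonds, filled where called), grouped by function. LIG4 and RBBP8 are called in both fits.

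**Figure D5:**
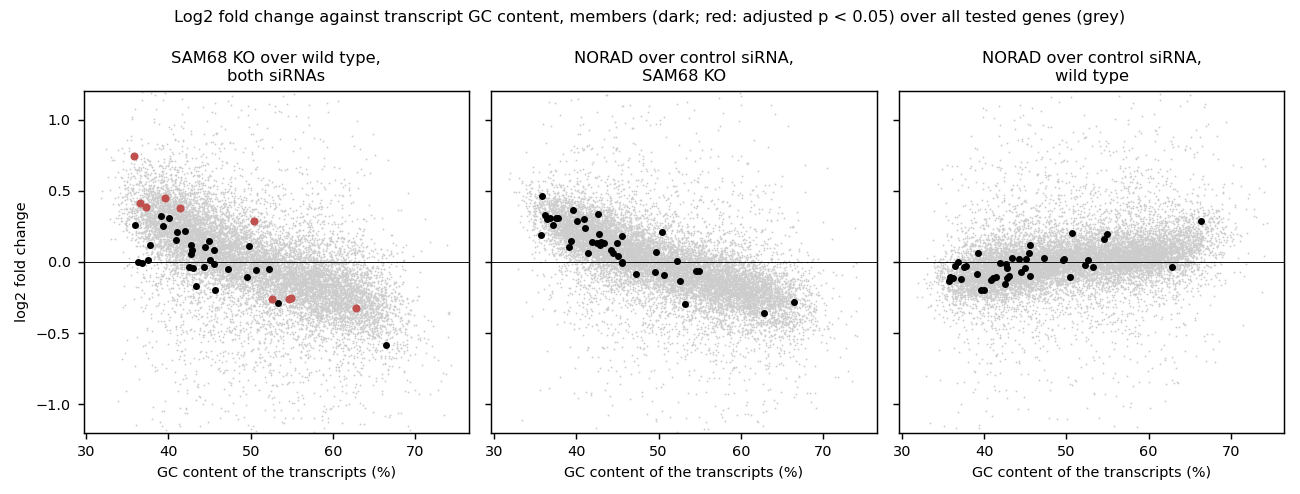
Log2 fold change against transcript GC content for SAM68 KO over wild type, NORAD over control siRNA in KO, and NORAD over control siRNA in wild-type HCT116, with members as dark points (red where called) over all tested genes in grey. The slope is downward in the first 2 panels, with member correlations of -0.74 and -0.835, and upward in the last, with 0.569.

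Single libraries decided much of the KO count and which members were in it. It was 10 without replicate 1 of KO under control siRNA and without replicate 2 of wild type under control siRNA, and 4 without replicate 2 of KO under NORAD siRNA. It was 1 without replicate 2 of KO under control siRNA, without replicate 1 of wild type under control siRNA or without replicate 2 of wild type under NORAD siRNA. It was 0 without replicate 1 of KO under NORAD siRNA or replicate 1 of wild type under NORAD siRNA, where LIG4 had adjusted p-values of 0.0571 and 0.0615 with edgeR. LIG4 was called in 6 of the 8 fits, XRCC4 in 3, NBN, RAD50, RBBP8, FANCM and XRCC3 in 2 each, FANCA and RAD54L in 1 each and ATRIP in 0, and the sign of each log2 fold change was the same in all 8. The share over all genes in the fits that left out 1 library is not given here. In the fit with all libraries the pathway list had 8 of 73 called higher and 3 lower, and the list of 30 cell cycle genes 2 higher and 8 lower.

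Transcript choice was assessed through the length that RSEM reports per gene, the mean length of its isoforms weighted by their abundance. A total of 29 members had a length that varied and could be tested with limma. In KO against wild-type HCT116 0 of 29 were called (0.0131% of 7645 genes), with an unadjusted p below 0.05 for FANCM, CHEK1, EXO1 and RAD51B. FANCM was 5975 ± 219 bases in KO and 5253 ± 433 bases in wild type (SD, n = 4 each; limma adjusted p = 0.323). Under SAM68 siRNA in U2OS 0 of 29 were called (0.0% of 8399 genes), with BLM alone below an unadjusted p of 0.05. Between the cell lines 4 of 29 were called (12.3% of 8937 genes, 6.53% longer and 5.72% shorter): BARD1, XRCC6 and MRE11 longer and EXO1 shorter in U2OS. The largest of these differences on the log2 scale was in XRCC6, 2241 bases in U2OS and 2190 bases in HCT116, and that in MRE11 was 5152 against 5143 bases, while their levels differed by 1.83 on the log2 scale. The count of 4 was 0 to 3 when 1 library was left out, with 0 without replicate 2 of wild-type HCT116, 1 without replicate 1 of it, 1 without replicate 2 of U2OS and 3 without replicate 1 of U2OS.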

How the data were processed

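Per the file headers, each library has a table of RSEM gene estimates over RefSeq transcripts. The expected counts deposited by the authors are estimated, unnormalized read counts, rounded to whole numbers here for testing. TPM values deposited by the authors served for levels between genes. The reported and effective lengths, in bases, are other columns deposited by the authors. STAR, RSEM and build hg19 come from the submitters' processing notes. For versions, and for whether counting used the strand of the stranded libraries, the source is silent (not given in the sources used here), so genes that overlap on opposite strands are uncertain. No coordinates of the files were used, and 3′ UTRs and GC content come from GRCh38.

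Each cell line was fitted with its 8 libraries (15658 genes in U2OS, 13764 in HCT116) and the cell lines with all 16 (16444 genes), using filterByExpr, TMM and edgeR's quasi-likelihood test (edgeR 4.0.16, limma 3.58.1, R 4.3.3), with Benjamini-Hochberg adjustment over all tested genes and a threshold of 0.05. SE is the log2 fold change over the root of F. The fitted biological coefficients of variation were 20% (U2OS) and 11.3% (HCT116). Exact permutation of 2 against 2 libraries gives no two-sided p below 0.333, and that of 4 against 4 none below 0.0286. DESeq2 1.42.0, its size factors, no filter, offsets for GC content (lowess, span 0.3) and effective length, a replicate block and leaving out each library were alternatives. Scripts were tested on simulated data. Replicates differed beyond sampling noise (chi-square per gene 7.83 to 60.1). Members and lists were chosen with earlier results of these data known. Named genes were, in each comparison, the called members (up to 12 a direction), the 3 of smallest p, and the 3 highest and 3 lowest in TPM; other names were chosen after their values were seen.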

Additional observations from a re-analysis of the deposited data

How the results depend on the processing

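The counts of called members were 0 under each alternative run for SAM68 siRNA, SAM68 plasmid, both NORAD siRNA comparisons and their interaction. For KO against wild-type HCT116 the count of 10 became 6 with the GC offset, 0 with control siRNA libraries only, 19 with the replicate block and 16 with the replicate block and GC offset together, and 0 to 10 when 1 library was left out. It was 11 with DESeq2, 13 without a filter on low counts and 9 with the effective length offset. With NORAD siRNA libraries only, which like the control siRNA libraries are 2 against 2, the count was 13. The cause of these differences in the count was not tested. The shares over all genes are given above for the fits by siRNA alone. For the other alternatives in this section no share is given, so those counts have no background beside them. For U2OS against wild-type HCT116 the count of 21 was 20 to 31 in the other fits, 20 with the replicate block, and 14 to 17 when 1 library was left out. For reported transcript length the counts of 0 stayed 0, and the count of 4 between the cell lines was 4 with a mean of at least 100 counts, 3 with the replicate block, and 0 to 3 when 1 library was left out. The members named by the rule kept their sign under each alternative in the comparisons given here. Under the GC offset other members changed sign, 13 of 41 for KO against wild type, and for KO against wild type under NORAD siRNA alone 20 of 41, among them the called RAD51AP1, CHEK1 and XRCC4. Deviations of same-numbered libraries correlated at -0.0831 to 0.351, and the labels tie a number to no shared culture or day, so the replicate numbers were not taken as pairs. Over the values of named members and the members' medians, 617 recomputed ones kept their side of the threshold or their range, 124 were no longer past it, and 16, each a median, moved by more than their spread. Each member had at least 98 counts in each library, and the KHDRBS1 changes that were not called in U2OS show what 2 libraries a group can miss.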
